A study of Mus musculus with 4 samples.

Results

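The genes of the translation initiation factors were examined in the RNA-seq libraries of wild-type (WT) and Npac knockout (KO) mouse embryonic stem cells (mESCs). They are the protein-coding rows of the deposited count table, off chromosome Y, whose symbol starts with Eif1 to Eif6, without the symbols that start with Eif2ak (kinases that phosphorylate eIF2), Eif1ad or Eif4a3. This gave 48 genes of the 56748 in the table. The rule uses no measured value. WT1 and WT2 are libraries of E14 cells, a mouse ES cell line, and KO1 and KO2 are libraries of the 2 Npac KO lines made in these cells. Npac, listed in the files as Glyr1, is a chromatin reader that binds methylated histone H3, and it was disrupted with Cas9 and single guide RNAs against exon 3. Cells of both groups were grown without feeder cells in serum and LIF. Each KO line was grown from a picked colony and has 1 library, so the KO lines stand as the replicates of the knockout. Nothing in the labels says that the WT libraries came from separate cultures, and p-values measure only the spread between these 4 libraries.

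Initiation brings a ribosome to the start codon of an mRNA. eIF2 carries the initiator tRNA as a complex with GTP, and eIF2B recharges eIF2 with GTP after each round. eIF3 is a large scaffold on the small ribosomal subunit, while eIF4E, eIF4G and eIF4A bind the cap and unwind the 5′ leader. eIF1, eIF1A and eIF5 take part in choosing the start codon, and eIF5B joins the large subunit. The RNA of these genes is abundant in growing cells such as mESCs, and transcript levels do not measure the activity of the factors.

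Total counts lay between 15850805 and 16965120 per library. Glyr1 itself had 3961 and 3115 reads in WT1 and WT2 and 744 and 888 in KO1 and KO2, a log2 fold change of -2.14 (SE 0.23, adjusted p = 0.00174, edgeR quasi-likelihood test as for all genes here). All 7 ES cell markers examined were detected in every library. Their summed level was 5775 and 4508 CPM (TMM-normalized read counts) in WT1 and WT2 and 3377 and 3115 CPM in KO1 and KO2. Of the 7, 5 lay below both WT libraries in both KO libraries, where 32.5% of all tested genes did. Utf1 lay above both WT libraries in both KO libraries. Zfp42 alone among the 7 passed the thresholds given below, with a log2 fold change of -2.64. The summed level of 6 fibroblast markers was 41.1 to 76.1 CPM over the 4 libraries with no order between the groups. Col3a1 was at 0, and Col1a1 rose from 5.57 and 9.62 CPM to 18.3 and 18.8 CPM. That of 5 primitive endoderm markers was 28.7 and 28.3 CPM in WT and 18.1 and 25.4 CPM in KO. Among them Sox7 fell from 17.9 and 9.27 CPM to 0.257 and 0.924 CPM, while Gata4, Gata6 and Pdgfra were higher in both KO libraries and not called. The sum of 4 trophoblast markers was 2.23 and 7.04 CPM in WT and 8.04 and 9.82 CPM in KO. The part of these differences in the results below was not tested. In bulk RNA, fewer cells of a type and less RNA per cell cannot be told apart.

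Of the 48 initiation factor genes, 47 had enough reads to be tested. A gene was called where its p-value, adjusted by the Benjamini-Hochberg method over all 18157 tested genes, was under 0.05 and its fold change over 1.5. On these criteria 9 initiation factor genes rose and 5 fell in Npac KO cells, while 33 were not called. The 9 that rose are 19.1% of the tested members, where 11% of all tested genes rose. The 5 that fell are 10.6%, where 10.7% of all genes fell. The share that fell thus sat at the background of all genes. Among protein-coding genes alone, 11.5% rose and 10.2% fell, 21.7% in all. The median log2 fold change over the 47 genes was 0.17, and over all genes it was 0.00. Both KO libraries lay above both WT libraries in 22 of the 47 and below in 13, and the groups overlapped in 12. Over all genes 33.2% lay above and 32.5% below, so that 65.7% did not overlap.

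The genes that rose were Eif4a1, Eif2s2, Eif3j1, Eif4b, Eif2b5, Eif3b, Eif3l, Eif2a and Eif5a. The genes that fell were Eif3j2, Eif4g3, Eif1b, Eif6 and Eif3h. These counts rested on both KO libraries. Without KO1, 4 rose and 2 fell, beside 4.4% and 4.26% of all genes. Without KO2, 4 rose and 1 fell, beside 4.31% and 4.28% of all genes. Without WT1, 11 rose and 5 fell, beside 14.4% and 15% of all genes, and without WT2 9 rose and 6 fell, beside 18.7% and 17.7%. Eif4a1, Eif2s2, Eif3j1, Eif3j2 and Eif4b were the 5 genes called under each of 13 alternative settings. Of these 5, Eif4a1, Eif2s2, Eif3j1 and Eif3j2 share long stretches of sequence with another gene or pseudogene, described with each of them below. Leaving these 4 out, 6 of 43 rose and 4 fell, which is 14% and 9.3% beside the 11% and 10.7% of all genes.

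**Figure D1:**
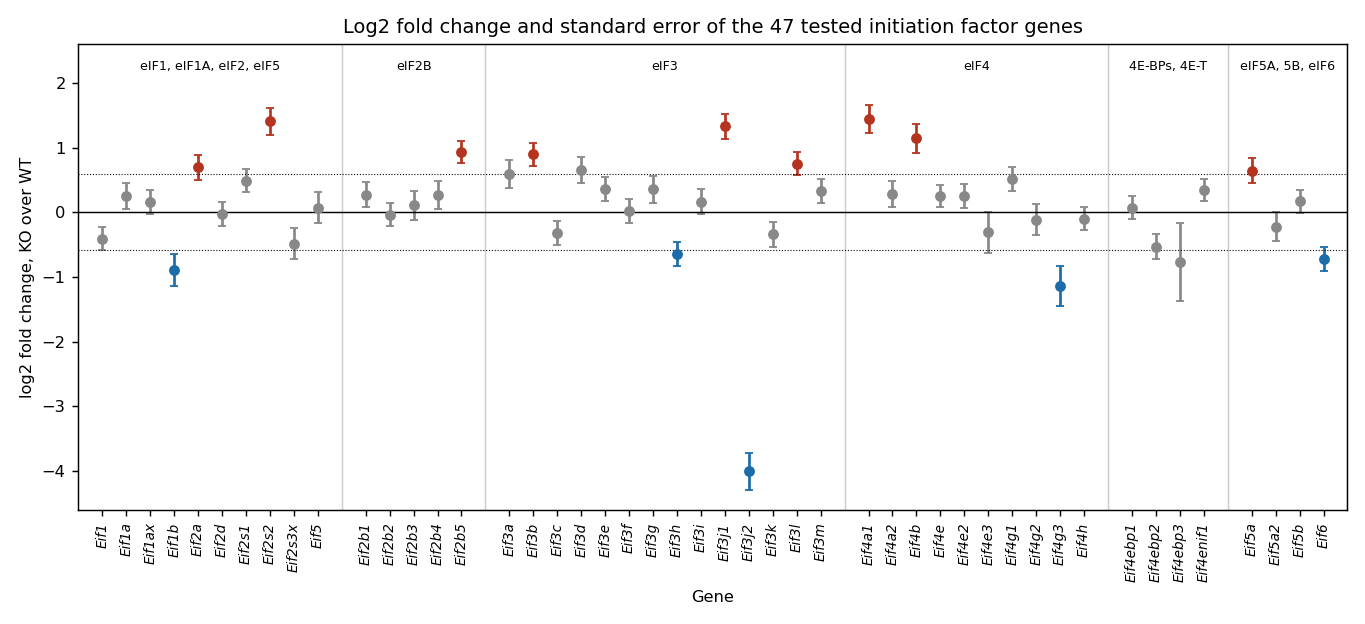
Log2 fold change of Npac KO over WT (vertical axis) for each of the 47 tested initiation factor genes (horizontal axis), grouped by factor. Points are the edgeR estimates and bars the approximate standard error. Red marks the 9 genes called up, blue the 5 called down and grey the 33 not called. Dotted lines mark a fold change of 1.5. Eif3j2 stands far below the others at -4.00, and the 4 genes of the 4E-BPs and 4E-T are all grey.

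**Figure D2:**
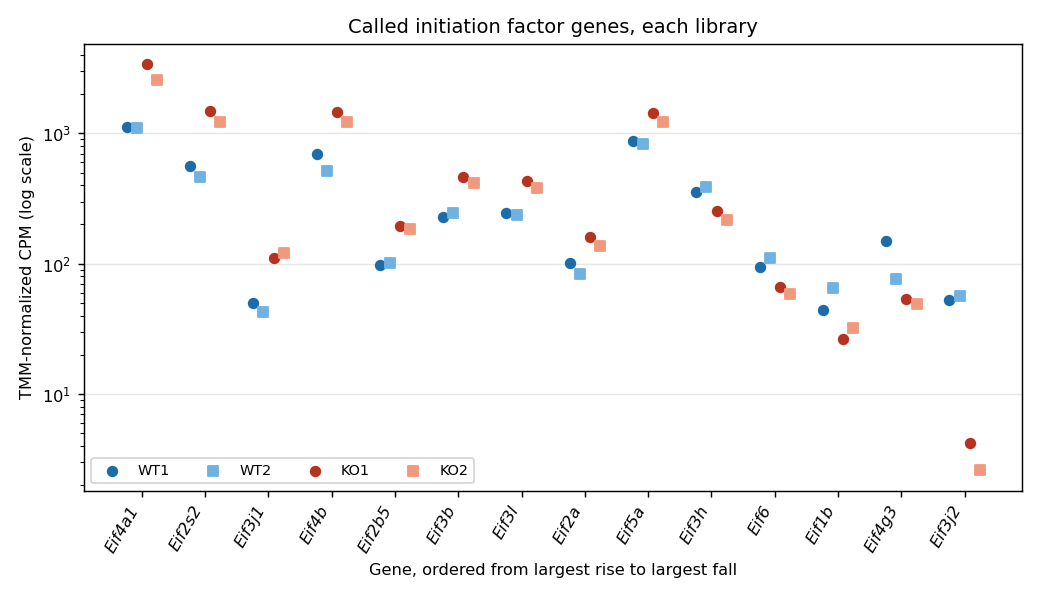
TMM-normalized CPM on a log scale (vertical axis) of the 14 called genes (horizontal axis) in WT1, WT2, KO1 and KO2, 1 point for each library. The WT and KO points do not overlap for any of the 14 genes, which were called on these same libraries. Over all genes 65.7% do not overlap. The widest WT gap is that of Eif4g3, at 150 and 76.1 CPM.

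The first group holds 10 genes for eIF1, eIF1A, eIF2 and eIF5 and for the tRNA-delivering factors eIF2A and eIF2D. In it Eif2s2 and Eif2a rose, Eif1b fell and 7 genes were not called. This is 20% up and 10% down, beside 11% and 10.7% of all genes. Eif2s2 (ENSMUSG00000074656), which encodes the beta subunit of eIF2, lies on chromosome 2 from 154713330 to 154734855 in the authors' files. Its level was 559 CPM in WT1, 461 CPM in WT2, 1477 CPM in KO1 and 1232 CPM in KO2. Both KO libraries were thus far above both WT libraries. This was a log2 fold change of 1.41 (SE 0.21, adjusted p = 0.0052), with a range of 1.26 to 1.55 over the fits that left out 1 library.

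The genes of the other subunits of eIF2 were not called. Eif2s1, the alpha subunit that the stress kinases phosphorylate, stood at 187 and 203 CPM in WT and 281 and 267 CPM in KO (log2 fold change 0.49, SE 0.17, adjusted p = 0.0827). Eif2s3x, the X-linked gene of the gamma subunit, stood at 352 and 247 CPM in WT and 243 and 184 CPM in KO (log2 fold change -0.49, SE 0.24, adjusted p = 0.179). The KO libraries lay above the WT libraries for Eif2s1 and below them for Eif2s3x, and neither passed the test. Compared per length, the FPKM of Eif2s2 was 0.897 times that of Eif2s3x in WT1 and 1.06 times in WT2. The ratio was 3.43 in KO1 and 3.78 in KO2. The FPKM of Eif2s2 over that of Eif2s1 went from 2.19 and 1.66 in WT to 3.85 and 3.38 in KO. The transcripts of the 3 subunits, whose proteins assemble in equal numbers, therefore stood in different proportions in WT and KO libraries.

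Part of Eif2s2 recurs in a processed pseudogene, Gm9892, on chromosome 8. The GENCODE transcripts differ at 5 of 992 aligned bases, and 310 of the 2163 windows of 150 bases in the Eif2s2 transcript, 14.3%, occur in Gm9892. A stretch of 120 bases of the coding sequence around 1 of the 5 differences is shown from both (GENCODE vM21, GRCm38, bases 6 to 125 of the aligned coding sequence), with the differing base in capitals. A read pair that lies wholly within bases shared by both cannot tell the genes apart.
Eif2s2: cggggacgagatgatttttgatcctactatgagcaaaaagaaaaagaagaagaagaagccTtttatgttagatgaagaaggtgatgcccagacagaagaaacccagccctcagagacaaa
Gm9892: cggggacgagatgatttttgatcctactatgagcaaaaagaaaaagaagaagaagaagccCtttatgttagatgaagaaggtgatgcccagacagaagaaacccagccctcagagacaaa
Gm9892 had 704 and 658 reads in WT and 2371 and 2263 reads in KO, which is 8.16% to 10.6% of the reads of Eif2s2 in the same library. Summing the reads of both left the call as it was, with a log2 fold change of 1.44 (SE 0.21, adjusted p = 0.00496).

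Eif2a encodes eIF2A, a separate protein that can deliver initiator tRNA without GTP and is no subunit of eIF2. It was at 101 and 83.0 CPM in WT and 161 and 137 CPM in KO, with no overlap of the groups, at a log2 fold change of 0.70 (SE 0.19, adjusted p = 0.0395). This call was lost without WT2, where the log2 fold change was 0.56, and without either KO library.

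Eif1 and Eif1b encode closely related forms of the factor that guards the choice of start codon. Eif1b fell from 43.8 and 64.9 CPM in WT to 26.4 and 32.0 CPM in KO. The log2 fold change was -0.90 (SE 0.25, adjusted p = 0.0385), and the WT libraries differed from each other by 0.56 on the log2 scale. The adjusted p was 0.0509 with upper-quartile normalization and 0.0772 after the median shift of each chromosome had been removed from the KO libraries. Eif1, the most abundant gene of the group per length at 302 FPKM in WT, was at 623 and 654 CPM in WT and 467 and 496 CPM in KO (log2 fold change -0.41, SE 0.18, adjusted p = 0.138). Eif1 lies on chromosome 11, whose genes had a median log2 fold change of 0.50. With the chromosome medians removed its log2 fold change was -0.92 and it was called (adjusted p = 0.015). The coding sequences of Eif1 and Eif1b are 81.1% identical and share no run of 150 bases, the read length.

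The genes of eIF1A, which works with eIF1 on the scanning ribosome, gave no call. Eif1a was at 186, 156, 225 and 182 CPM in WT1, WT2, KO1 and KO2, with overlapping groups. Eif1ax, its X-linked paralog, was at 143, 149, 181 and 146 CPM. Eif5, which makes eIF2 hydrolyse its GTP, and Eif2d also had overlapping groups, with log2 fold changes of 0.07 and -0.03.

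The exchange factor eIF2B has 5 subunits, and Eif2b5 alone among their genes was called. It makes up 20% of the 5, where 11% of all genes rose. Eif2b5 (ENSMUSG00000003235, chromosome 16) encodes the catalytic epsilon subunit. It was at 97.7 and 100 CPM in WT and at 193 and 183 CPM in KO, and replicates of each group lay within 0.08 of each other on the log2 scale. It rose by a log2 fold change of 0.93 (SE 0.17, adjusted p = 0.0106). Eif2b1 to Eif2b4 had log2 fold changes of 0.27, -0.04, 0.11 and 0.27, each with an adjusted p of 0.341 or more. The groups overlapped for Eif2b3 and Eif2b4. Eif2b5 was also the most abundant of the 5 per length, at 37.9 FPKM in WT and 71.8 FPKM in KO. Its call was lost without KO1 (log2 fold change 0.88, adjusted p = 0.096) and without KO2 (0.98, adjusted p = 0.0687).

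For eIF3, 14 genes were tested, of which 3 rose, 2 fell and 9 were not called. This is 21.4% up and 14.3% down, beside 11% and 10.7% of all genes. Eif3b and Eif3l rose together with Eif3j1, and Eif3h and Eif3j2 fell. The summed FPKM of the 14 genes was 1063 and 1122 in WT1 and WT2 and 1225 and 1073 in KO1 and KO2, so that the groups overlapped in this sum. In CPM, where long genes weigh more, the sums did not overlap, at 3550 and 3564 CPM in WT and 4366 and 3947 CPM in KO.

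Eif3b, which encodes a core subunit with an RNA recognition motif, was at 229 and 246 CPM in WT and 467 and 418 CPM in KO. Its rise came to a log2 fold change of 0.90 (SE 0.18, adjusted p = 0.014). Eif3l, a subunit of the outer octamer, was at 243 and 238 CPM in WT and 428 and 381 CPM in KO (log2 fold change 0.75, SE 0.18, adjusted p = 0.0242). For both genes the KO libraries lay well above the WT libraries, and both calls were lost without KO1 or without KO2. Eif3h, which encodes an MPN-domain subunit, was at 355 and 386 CPM in WT and 254 and 217 CPM in KO (log2 fold change -0.65, SE 0.19, adjusted p = 0.0425). Eif3h had been the most abundant eIF3 gene per length in WT, at 219 and 237 FPKM, and stood at 157 and 132 FPKM in KO. Its adjusted p was 0.0526 with limma-trend on FPKM and 0.062 with the chromosome medians removed, and the call was lost without either KO library.

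The other subunits ranged from a log2 fold change of -0.34 for Eif3k to 0.65 for Eif3d. Eif3a, the largest subunit and the scaffold of the complex, was at 616 and 442 CPM in WT and 809 and 782 CPM in KO (log2 fold change 0.59, SE 0.22, adjusted p = 0.0881). Eif3d, a cap-binding subunit, was at 144 and 195 CPM in WT and 277 and 257 CPM in KO (log2 fold change 0.65, SE 0.21, adjusted p = 0.0571). Both were above WT in both KO libraries but missed the threshold, and of the 13 alternative settings Eif3d was called in 6, DESeq2 among them, and Eif3a in 3. Eif3d shares 43.3% of its exon bases with an antisense gene, Gm17638, which had only 12 to 16 reads. Eif3f was the flattest of the 14, with a log2 fold change of 0.02.

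**Figure D3:**
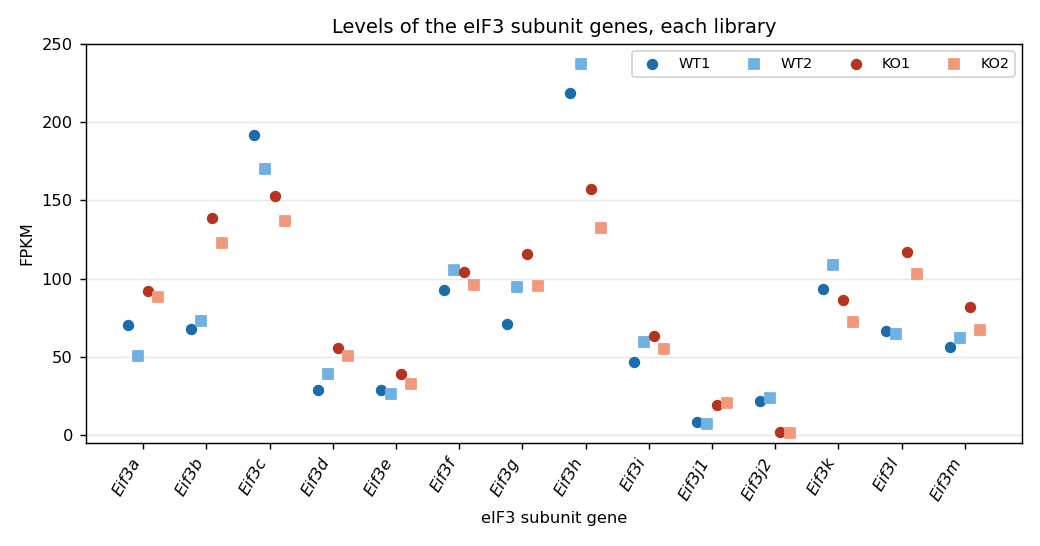
FPKM (vertical axis) of the 14 eIF3 subunit genes (horizontal axis), 1 point for each of WT1, WT2, KO1 and KO2. Eif3b and Eif3l lie higher in both KO libraries and Eif3h lower, while Eif3j2 drops to 1.75 and 1.07 FPKM in KO1 and KO2.

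The widest change of all was in Eif3j, the loosely bound subunit that sits near the mRNA entry channel and has a pair of genes in the mouse. Eif3j1 (ENSMUSG00000027236, chromosome 2 from 121859027 to 121887079 in the authors' files) has 8 exons. It had 766 and 744 reads in WT1 and WT2 and 1726 and 2103 reads in KO1 and KO2. Eif3j2 (ENSMUSG00000043424, chromosome 18 from 43608483 to 43610861) has 1 exon, as a retrocopy would. It had 800 and 982 reads in WT and 65 and 45 reads in KO. In reads the genes were thus close in WT and far apart in KO. Per length, Eif3j2 was the higher of the pair in WT, with 71.9% and 76.4% of the summed FPKM, and the lower in KO, with 8.45% and 4.98%. Eif3j1 rose by a log2 fold change of 1.33 (SE 0.19, adjusted p = 0.00453), and Eif3j2 changed by a log2 fold change of -4.00 (SE 0.29, adjusted p = 0.000451), which is 16.0 times lower.

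Reads of these genes are hard to tell apart. Their coding sequences share a run of 781 bases with no mismatch between them, out of 783 bases in Eif3j1 and 789 in Eif3j2. Of all windows of 150 bases in the annotated Eif3j2 transcript, 77.1% occur in Eif3j1, while 32.7% of those of Eif3j1 occur in Eif3j2. These windows stand for single reads, and the mate of a read can also place a pair where it lies outside the shared stretch. How the authors' counting treated reads that map to both is not given in the sources used here. Eif3j2 took 51.1% and 56.9% of the reads of the pair in WT1 and WT2 and 3.63% and 2.09% in KO1 and KO2. The summed reads of the pair were 1566, 1726, 1791 and 2148, with a log2 fold change of 0.25 (SE 0.17, adjusted p = 0.326), which was not called. The sum was chosen after the data had been seen. The split of the reads between the genes thus differed between WT and KO libraries, while their total did not pass the test. On the opposite strand, Spg11 covers 19.0% of the exon bases of Eif3j1, with 1848 and 1013 reads in WT and 1244 and 1473 in KO.

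**Figure D4:**
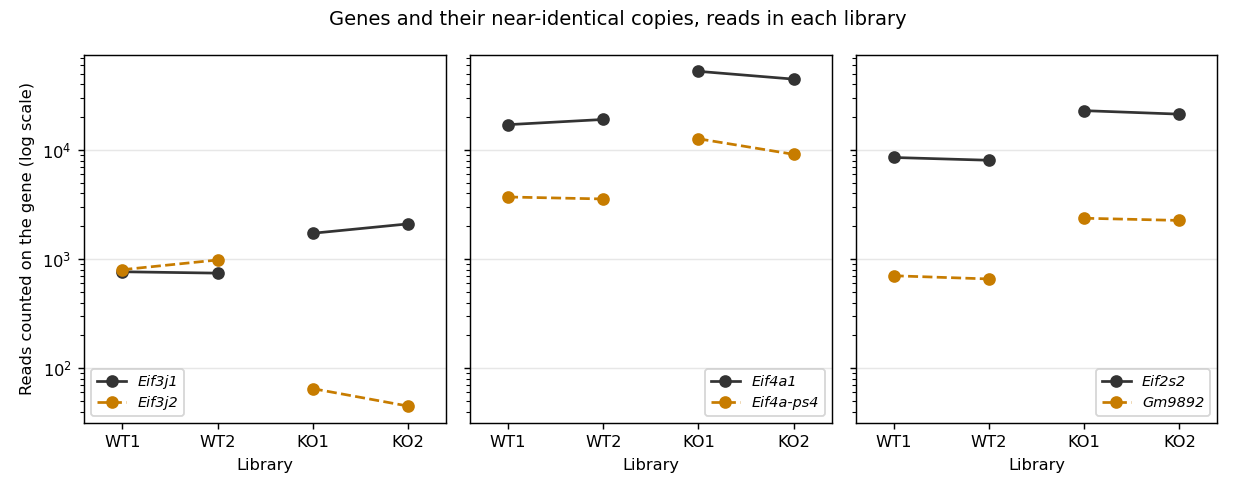
Reads counted on each gene (vertical axis, log scale) in WT1, WT2, KO1 and KO2 for Eif3j1 and Eif3j2, Eif4a1 and the pseudogene Eif4a-ps4, and Eif2s2 and the pseudogene Gm9892, with lines joining the libraries of 1 group. Eif3j1 and Eif3j2 part in the KO libraries, whereas each pseudogene follows its parent gene upward.

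The eIF4 group holds 11 genes for cap binding and unwinding, 10 of them tested, and Eif4a1 and Eif4b rose while Eif4g3 fell. This is 20% up and 10% down, beside 11% and 10.7% of all genes. Eif4a1 (ENSMUSG00000059796, chromosome 11 from 69557762 to 69563249) encodes the RNA helicase of the cap complex. Its level was 1118 and 1091 CPM in WT and 3387 and 2580 CPM in KO. The log2 fold change was 1.43 (SE 0.22, adjusted p = 0.00549), the largest rise of the 47 genes. With the median of chromosome 11 removed from the KO libraries it was 0.92 and the gene was still called. Eif4b encodes the cofactor that stimulates this helicase. It was at 694 and 518 CPM in WT and 1451 and 1225 CPM in KO (log2 fold change 1.14, SE 0.22, adjusted p = 0.0123), and no near-identical copy with more than 2 reads in any library was matched to it. Helicase and cofactor were both higher in each KO library than in either WT library.

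Eif4a1 has a nearly complete processed copy, Eif4a-ps4, on chromosome 1. The coding sequences of 1218 bases differ at 1 base. The stretch that holds it is shown in both (GENCODE vM21, GRCm38, bases 474 to 593 of the coding sequence), with the differing base in capitals. A read pair wholly within the coding sequence separates the copies only where a mate covers that base.
Eif4a1: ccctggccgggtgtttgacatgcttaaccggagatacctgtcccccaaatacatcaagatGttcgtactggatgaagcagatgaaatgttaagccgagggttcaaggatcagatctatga
Eif4a-ps4: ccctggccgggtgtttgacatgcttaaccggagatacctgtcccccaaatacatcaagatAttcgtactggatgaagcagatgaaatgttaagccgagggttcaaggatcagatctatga
Eif4a-ps4 had 3712 and 3560 reads in WT and 12675 and 9133 in KO, and its reads came to 18.7% to 24.1% of those of Eif4a1 in the same library. The sum of both, also chosen after the data had been seen, gave a log2 fold change of 1.46 (SE 0.22, adjusted p = 0.0058).

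Eif4a2, the paralog of Eif4a1, is 78.3% identical to it in coding sequence and shares no window of 150 bases with it. It was at 1142 and 933 CPM in WT and 1297 and 1228 CPM in KO (log2 fold change 0.28, SE 0.20, adjusted p = 0.333). Eif4a1 made up 54.7% and 59.0% of the summed FPKM of the pair in WT and 76.3% and 72.1% in KO. The FPKM of Eif4a1 was 253 in WT and 682 in KO on average, and it passed that of Eif5a, which was the highest of the 48 genes in WT.

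Among the scaffold genes, Eif4g3 fell from 150 and 76.1 CPM in WT1 and WT2 to 54.0 and 48.9 CPM in KO1 and KO2. The log2 fold change was -1.14 (SE 0.31, adjusted p = 0.0366). The WT libraries differed by 0.98 on the log2 scale, and without WT1 the log2 fold change was -0.59. Its adjusted p was 0.0841 with limma-trend on FPKM, and without KO2 it was 0.127. Eif4g1, the main scaffold, was at 598 and 521 CPM in WT and 844 and 755 CPM in KO (log2 fold change 0.52, SE 0.19, adjusted p = 0.0881), and it was called without WT1 (0.59, adjusted p = 0.0408). Eif4g3 supplied 14.2% and 8.80% of the summed FPKM of Eif4g1 and Eif4g3 in WT, against 4.05% and 4.10% in KO. Eif4g2, which lacks the eIF4E-binding part of the scaffold, overlapped between groups, with a log2 fold change of -0.12.

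The cap-binding genes themselves were not called. Eif4e was at 148, 138, 177 and 163 CPM in WT1, WT2, KO1 and KO2 (log2 fold change 0.25, SE 0.17, adjusted p = 0.337). Eif4e2, whose product competes for the cap without promoting initiation, was at 142, 127, 175 and 147 CPM (log2 fold change 0.26, SE 0.19, adjusted p = 0.352). Eif4e1b, an egg-cell form of eIF4E, was the 1 gene with too few reads to test, with 1 and 4 reads in WT and 6 and 7 in KO, counts too low to show a difference.

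The 4 genes that restrain eIF4E, those of the 4E-BPs and of the transport protein 4E-T, gave no call by edgeR or DESeq2. By edgeR 21.7% of all genes were called, and 4 genes are too few to set beside that share. Eif4ebp2, 1 of the 4 genes, had an unadjusted p under 0.05. Eif4ebp1, at 157 FPKM in KO and 149.9 FPKM in WT the most abundant of them, was at 352 and 311 CPM in WT and 365 and 332 CPM in KO (log2 fold change 0.07, SE 0.18, adjusted p = 0.805). It lies on chromosome 8, whose genes had a median log2 fold change of 0.51, and with the chromosome medians removed its own was -0.45 (adjusted p = 0.128). Eif4ebp2 was at 453 and 468 CPM in WT and 289 and 348 CPM in KO, below WT in both lines, and missed the threshold (log2 fold change -0.53, SE 0.19, adjusted p = 0.0797). Eif4ebp3 had 7 to 24 reads in a library and overlapping groups, and its log2 fold change of -0.77 had an SE of 0.61. Eif4enif1, the gene of 4E-T, was higher in both KO libraries at a log2 fold change of 0.34 (SE 0.17, adjusted p = 0.19) and was not called. It lies on chromosome 11, and with the chromosome medians removed the sign turned, at -0.17 (adjusted p = 0.531). Per length, the 3 4E-BP genes together stood at 9.70 and 9.78 times the FPKM of Eif4e in WT and at 7.37 and 7.84 times in KO.

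The last group holds the genes that act at or after subunit joining. Eif5a, whose product carries the modified amino acid hypusine and helps ribosomes through difficult peptide bonds, was at 873 and 828 CPM in WT and 1432 and 1222 CPM in KO. The log2 fold change was 0.64 (SE 0.19, adjusted p = 0.0496), next to the threshold. Eif5a lies on chromosome 11, and with the chromosome medians removed the log2 fold change was 0.13 (adjusted p = 0.676). The call was also lost with limma-trend on FPKM (adjusted p = 0.0939) and without either KO library. Eif6, an anti-association factor of the large subunit, was at 94.5 and 111 CPM in WT and 66.5 and 58.3 CPM in KO (log2 fold change -0.72, SE 0.19, adjusted p = 0.0324). It was not called without KO1 (adjusted p = 0.168) or without KO2 (adjusted p = 0.324). Eif5b, the subunit-joining GTPase, and Eif5a2 were not called, with log2 fold changes of 0.17 and -0.23.

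In some pairs, paralogs of the same factor changed unequally. In the pairs Eif4a1 and Eif4a2, Eif4ebp1 and Eif4ebp2, Eif4g1 and Eif4g3, Eif1 and Eif1b, and Eif5a and Eif5a2, the share of the first gene in the summed FPKM was higher in both KO libraries than in both WT libraries. The shift was small for Eif1b, at 11.6% and 15.6% of the pair in WT and 9.52% and 10.8% in KO. For Eif1a and Eif1ax the groups overlapped, with Eif1ax at 37.9%, 43.0%, 38.9% and 38.8%. In 4 of these 5 pairs the first gene lies on chromosome 11 or 8 and the second on another chromosome. With the chromosome medians removed, the order turned for Eif1 and Eif1b, whose log2 fold changes were then -0.92 and -0.71. For Eif5a and Eif5a2 they were 0.13 and -0.13, for Eif4ebp1 and Eif4ebp2 -0.45 and -0.47, and for Eif4a1 and Eif4a2 0.92 and 0.32. Eif4ebp1 and Eif4ebp2 were not among the set paralog pairs. For Eif4e and Eif4e2, which were, no share was computed, and their log2 fold changes were 0.25 and 0.26. No test was made on these shares.

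**Figure D5:**
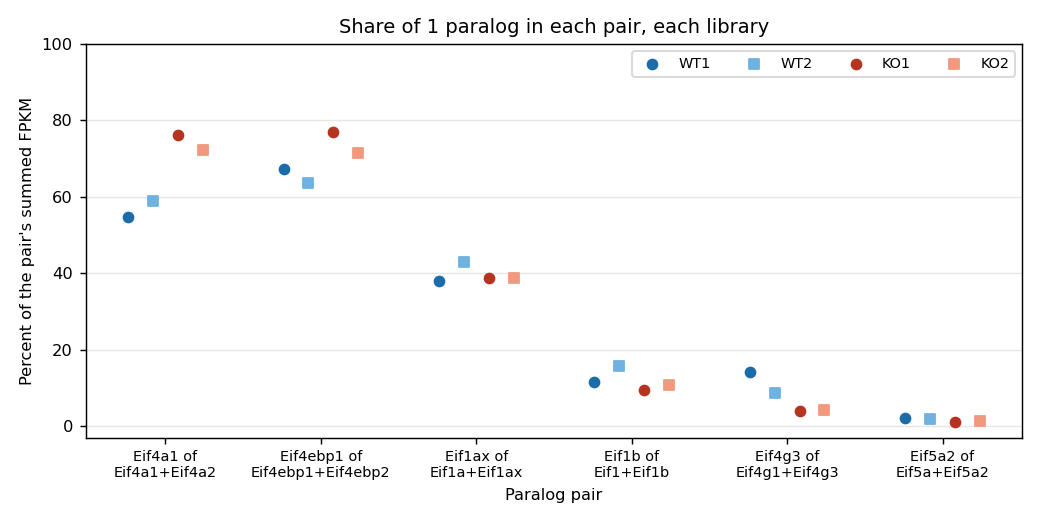
Percent of the summed FPKM of a paralog pair (vertical axis) supplied by 1 gene, for 6 pairs (horizontal axis), 1 point for each of WT1, WT2, KO1 and KO2. The genes shown are Eif4a1, Eif4ebp1, Eif1ax, Eif1b, Eif4g3 and Eif5a2. Eif1b, Eif4g3 and Eif5a2, the second genes of their pairs in the text, lie lower in both KO libraries. Eif4a1 moves from 54.7% and 59.0% to 76.3% and 72.1%, while Eif1ax overlaps between the groups.

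Of 11 genes of translation elongation, none was called by edgeR's quasi-likelihood test, beside 11% of all genes up and 10.7% down. Of the 11, 4 had an unadjusted p under 0.05, and the share of all genes under that cut was not counted. The edgeR likelihood-ratio test called 1 up, and DESeq2 also called 1 up, Eef1a2, a tissue-restricted paralog of Eef1a1, at 0.72 and 2.69 CPM in WT and 4.63 and 6.47 CPM in KO. Eef1a1, which brings charged tRNAs to the ribosome and was the most abundant of them, had a log2 fold change of -0.24 (SE 0.23) and overlapping groups. Of 7 genes of termination and recycling, 1 fell, namely Gspt2, a paralog of the release factor gene Gspt1, from 47.9 and 54.3 CPM to 15.8 and 18.3 CPM (log2 fold change -1.59, SE 0.21, adjusted p = 0.00368). In a list of 32 regulators of initiation and related genes, 4 rose and 7 fell, beside 11% and 10.7% of all genes.

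The genes of this list that fell included some around the phosphorylation of eIF2. Ppp1r15a, which directs a phosphatase to eIF2 alpha, went from 113 and 76.2 CPM to 25.8 and 22.9 CPM (log2 fold change -1.96, SE 0.24, adjusted p = 0.0029). Its paralog Ppp1r15b had a log2 fold change of -0.88, and Atf4, a transcription factor whose mRNA is translated when eIF2 is phosphorylated, one of -1.18. Impact, an inhibitor of the eIF2 kinase Gcn2, had a log2 fold change of -1.01, which was -0.50 and no longer called without WT1. Its call was also lost with limma-trend on FPKM, with the chromosome medians removed and without either KO library. The 4 eIF2 kinase genes themselves, Eif2ak1 to Eif2ak4, lay between -0.18 and 0.12 and were not called. Mknk1, a kinase of eIF4E, had a log2 fold change of -1.02, Rps6kb2, an S6 kinase, one of -0.78 and Abtb1 one of -0.78. The genes that rose were Larp1, a binder of TOP mRNAs, with a log2 fold change of 0.99, Pdcd4, an inhibitor of eIF4A, with 0.67, Abcf1 with 0.64 and Dhx29, a helicase of the scanning ribosome, with 0.63. Larp1 lies on chromosome 11 and was not called with the chromosome medians removed (0.48, adjusted p = 0.133). Over the 13 alternative settings, the call was lost in 4 for Dhx29 and in 3 each for Abcf1 and Rps6kb2. It was lost in 2 each for Pdcd4, Ppp1r15b, Abtb1 and Larp1, and in 1 each for Atf4 and Mknk1. That of Ppp1r15a held in all 13. How many of the 50 genes of these lists were called depended on the libraries left in, the KO libraries above all. The counts over all genes changed with the library left out as well.

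The promoter windows of 36 of the 48 genes were found in the RefSeq-based table (GRCm38.p6). The E-box CACGTG is its own reverse complement and is bound by MYC-family factors among others. It occurred in the 250 bases before the start of 7 of the 36 genes, 19.4%, and of 6.05% of all 27025 promoters. The first listed promoter of each gene was taken. The 27025 were not limited to genes with reads here, and no share was computed for expressed genes alone. These shares therefore do not show that the motif is particular to initiation factor genes. The 7 genes were Eif1b, Eif3f, Eif3k, Eif4a1, Eif4g1, Eif4h and Eif5a2. Of these Eif4a1 rose, Eif1b fell and the others were not called, where 11% of all genes rose and 10.7% fell. Whether the motif goes with these changes was not tested. The match in Eif4a1, the gene with the largest rise, begins 189 bases before its start and is shown in capitals on its own strand (chr11:69672567-69672652, minus strand).
Eif4a1 promoter: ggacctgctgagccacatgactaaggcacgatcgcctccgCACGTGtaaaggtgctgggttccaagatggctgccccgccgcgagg
Such a match is a description of the letters in this window and not of binding.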

How the data were processed

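RNA was sequenced from 4 libraries as pairs of 150-base reads. The authors deposited raw read counts per gene and FPKM, the same counts per gene length and library size. The submitters' processing notes name CASAVA, HISAT2 2.0.5, featureCounts 1.5.0-p3 and build mm10. The strand setting and the treatment of reads with several map positions are not given in the sources used here. Member positions in the files match GENCODE vM21 (GRCm38) for 0 of 48 genes, although span lengths match for 48, so positions are given as in the files and GRCm38 is used only for sequences.

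Counts were normalized by TMM, filtered with filterByExpr and tested with edgeR 4.0.16 (glmQLFit, glmQLFTest; R 4.3.3) with Benjamini-Hochberg adjustment over 18157 genes, KO1 and KO2 against WT1 and WT2. The common biological coefficient of variation was 0.235. SE is an approximate standard error of the log2 fold change. It is the absolute log2 fold change divided by the square root of the quasi-likelihood F statistic. The FPKM alternative used limma 3.58.1 on log2(FPKM + 1), DESeq2 1.42.0 was run on the counts, and pseudogene copies were taken from blastn 2.17.0 where they aligned over 60% or more at 90% identity. The scripts were tested on simulated counts.

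The members and lists were chosen with earlier results of these data known. Named genes were members with an adjusted p under 0.05, in each group the most abundant gene and that with the largest change, set paralog pairs, untested members, called genes of the other lists and Glyr1. Other named genes were chosen after their values were seen.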

Additional observations from a re-analysis of the deposited data

Results flagged for a closer look

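The Y-linked gene Eif2s3y, a paralog of Eif2s3x left out of the 48 genes because it lies on chromosome Y, had 47 reads in KO1 and 84 reads in KO2, above the 8 and 4 reads of WT1 and WT2. It stands here because it lies outside the comparisons of the report and exceeded the level of the WT libraries. Its reads came to 1.24% and 2.64% of those of Eif2s3x in KO1 and KO2, and to 0.149% and 0.0928% in WT1 and WT2. The coding sequences of the pair are 86.3% identical and share no window of 150 bases.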

How the results depend on the processing

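The counts of called genes depended most on the KO libraries left in. With 1 library left out at a time, the initiation factor genes that rose numbered 4 to 11 and those that fell 1 to 6, and their median log2 fold change lay between 0.11 and 0.25. Over all genes the same settings gave 826 to 3571 up and 821 to 3384 down, and for the elongation, termination and regulator genes 0 to 9 up and 2 to 9 down. Limma-trend on FPKM called 3 initiation factor genes down, and 1595 of all 18157 genes. Without the filter on low counts, 9 elongation, termination and regulator genes rose, and 2862 of all 32685 genes. WT and KO libraries of the same number had deviations from their group means that correlated at 0.332 over genes, with only 2 pairs, which does not show that the numbers pair the samples. With the replicate block, 3128 genes rose and 2994 fell, and 11 initiation factor genes rose and 5 fell, and 10 elongation, termination and regulator genes rose. The cause of these differences was not tested. No result changed direction past the threshold. DESeq2 called 10 initiation factor genes up and 5 down, against 9 and 5 by edgeR. Over all genes DESeq2 called 2033 up and 2098 down of 20012, and edgeR 1999 and 1946 of 18157. The sums of Eif3j1 with Eif3j2 and of Eif4a1 with Eif4a-ps4 were added after seeing the data.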

Other observations

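Some genes that resemble initiation factors by symbol but were outside the 48 were also looked at, and those named here were chosen after their values were seen. Eif4a3l1, named for the exon-junction helicase gene Eif4a3, had 221 and 1023 reads in WT1 and WT2 and 2 and 6 reads in KO1 and KO2. Eif4a3l2 had 109 and 379 reads in WT and 0 and 4 in KO. In the Eif1ad family, Eif1ad3 had 168 and 324 reads in WT and 3 and 36 in KO, and Eif1ad8 had 166 and 601 reads in WT and 7 and 91 in KO. For Eif4a3l1, Eif4a3l2, Eif1ad3 and Eif1ad8 the KO libraries lay below both WT libraries, and WT2 was above WT1. The first 3 were called down (adjusted p = 0.00265, 0.00412 and 0.0163), and Eif1ad8 was not (0.0525). In the same family Eif1ad10, Eif1ad14 and Eif1ad15 were also called down. Eif1ad was not called (log2 fold change -0.37, adjusted p = 0.168), and Eif1ad11, Eif1ad13, Eif1ad16 and Eif1ad19 overlapped between the groups. Eif4a3 itself was at 2541 and 3249 reads in WT and 3973 and 3971 in KO (log2 fold change 0.46, SE 0.18, adjusted p = 0.104). Eif3s6-ps2, a processed copy of Eif3e, had 45 and 52 reads in WT and 4 and 6 in KO, while Eif3e was not called (log2 fold change 0.36, adjusted p = 0.193). Eif3s6-ps2 aligned to Eif3e at 95.96% identity. Sequences within the Eif1ad and Eif4a3 families were not compared here. Read counts of all these genes are uncertain where copies share sequence.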
